A study of Danio rerio with 12 samples.

Results

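The 10 keratin genes of interest, 3 of type II (krt4, krt5 and krt8) and 7 of type I (krt18, krt15, krt17, krt91, krt92, krt94 and cyt1), were followed in whole zebrafish larvae exposed to bisphenol A (BPA), a building block of polycarbonate and a weak estrogen receptor ligand. They were found by their symbol in the deposited gene tables, where each of the 10 symbols stood for 1 of 31540 genes. All larvae were wild type and 5 days post fertilization old, and were kept in treated water from day 2 to day 5, with 0.2% DMSO as solvent in every group, the control included. The groups were the solvent control and 3 doses of BPA, 0.1, 1 and 4 mg/L, with 3 libraries each and 10 pooled larvae per library. The labels do not state whether the pools came from separate clutches or dishes, so p-values measure the spread between these pools.

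Keratins are the intermediate filament proteins of epithelia. A filament forms only from pairs of a type I (acidic) and a type II (basic) keratin, and the resulting network gives epithelial sheets their resistance to mechanical stress. The larval zebrafish epidermis has a superficial layer, the periderm, over a layer of basal cells, and keratins such as krt4, krt5, cyt1 and krt17 are among its most strongly transcribed genes. krt8 and krt18 are the type II and type I pair of simple epithelia and are also made outside the skin. Since whole larvae were sequenced, fewer cells of a type and less RNA per cell cannot be told apart.

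Libraries held between 21.95 and 34.22 M counts (M, mega, as in Mb). The 4 libraries numbered 3 and control replicate 2 lay on the positive side of the first principal component of all tested genes, at 13.1 to 45.8, and the other 7 libraries on the negative side; the component held 29.3% of the variance. The keratin medians against the control and between doses are also given for the libraries numbered 1 and 2 alone. Control replicate 2, at 27.6, stays in that subset, so the subset does not remove the split along this component. A single defining marker each of fast muscle, heart, liver, exocrine pancreas, lens, rods, neurons, blood, gut and epidermis was present in every library, from 11.65 CPM (counts per M total counts, scaled by TMM) upward. Basal epidermal cells were represented as well, with tp63, the transcription factor of basal keratinocytes, at 42.16 to 87.5 CPM, and so was the periderm, with icn2 at 148.4 to 484.5 CPM.

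The 10 keratins together took 3.74% to 6.70% of all counts of a library. Their share was 5.39%, 6.70% and 6.25% in control replicates 1, 2 and 3. At 0.1 mg/L it was 5.53%, 5.74% and 5.36%, at 1 mg/L 4.58%, 3.90% and 5.92%, and at 4 mg/L 4.55%, 3.74% and 5.09%. The highest library at 4 mg/L lay below the lowest control library, whereas the groups at 0.1 and 1 mg/L overlapped the control. The share averaged 4.46% ± 0.682 at 4 mg/L and 6.11% ± 0.668 in the control (SD, n = 3 each). The 95% Wilson intervals of single libraries reached at most 0.01 percentage points to either side and cover counting error only, so the spread between pools was far wider than counting error.

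krt4 alone held 45.2% to 49.7% of these keratin counts and was the most abundant or second most abundant of all genes in each of the 12 libraries. By mean CPM over all libraries, krt4 ranked 2nd of the tested genes with 24570 CPM, cyt1 10th with 8233, krt5 11th with 8104 and krt91 20th with 5253. krt17 averaged 3548 CPM, krt8 1217, krt15 797.1, krt92 716.9, krt18 433.4 and krt94 73.05. These levels are not corrected for transcript length, so their order is an order of counts and not of transcript numbers. The fewest reads of any keratin in any library were 1498, for krt94, and all 10 passed the filter on low counts.

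Type II keratins took more counts than type I keratins in all 12 libraries. There were 0.559, 0.592 and 0.646 type I counts per type II count in the control, 0.505, 0.553 and 0.601 at 0.1 mg/L, 0.534, 0.522 and 0.621 at 1 mg/L, and 0.461, 0.498 and 0.561 at 4 mg/L. The library numbered 3 had the highest ratio in each group. The ratio averaged 0.507 ± 0.0509 at 4 mg/L and 0.599 ± 0.0441 in the control (SD, n = 3 each), and the groups overlapped, with the highest 4 mg/L library just above the lowest control library.

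**Figure D1:**
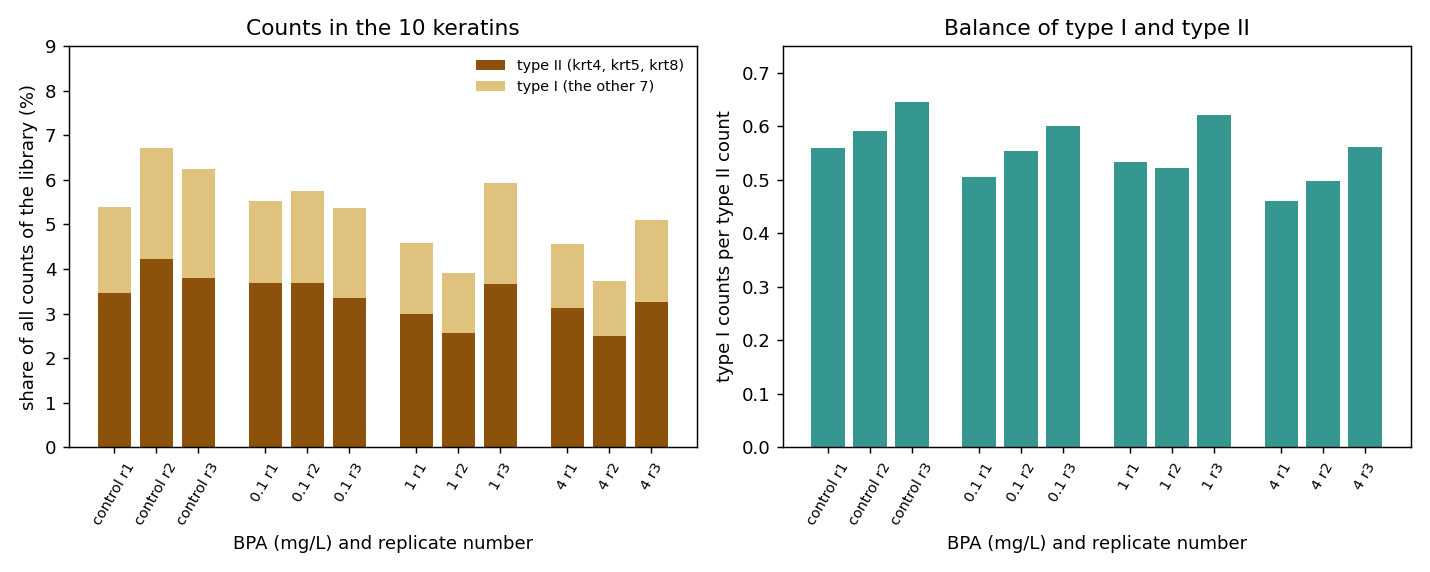
Left, share of all counts of a library in the 10 keratins (percent, vertical axis), with type II and type I stacked, for each of the 12 libraries grouped by BPA dose and replicate number (horizontal axis). Right, type I counts per type II count in the same libraries; the share was 5.39% to 6.70% in the control and 3.74% to 5.09% at 4 mg/L, and in each group replicate 3 had the highest ratio.

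The comparison of 4 mg/L with the control asks whether keratin transcripts respond to the highest dose. In edgeR's quasi-likelihood test 0 of the 10 keratins passed an adjusted p of 0.05, where 63 of 22399 tested genes did (0.281%). 9 of the 10 had a log2 fold change below 0 (50.4% of all tested genes), and their median was −0.51 against −0.0029 for all tested genes, a difference of −29.8% in counts. 5 of the 10, krt8, krt15, krt17, krt91 and cyt1, were lower at an unadjusted p under 0.05 (6.61% of all tested genes). 5 of the 10, krt4, krt8, krt18, krt15 and cyt1, were lower in every 4 mg/L library than in any control library (8.91% of all tested genes). DESeq2 passed 1 of the 10, krt8 (log2 fold change −0.46, adjusted p = 0.033), and 483 genes in all, with 8 keratins at an unadjusted p under 0.05. limma-voom passed 0 of the 10 and 52 genes in all, with 6 keratins under 0.05. The share of 6.61% belongs to edgeR's fit of all 12 libraries and not to these 2. In the libraries numbered 1 and 2 alone the median was −0.56, again with 0 keratins passed and 6 at an unadjusted p under 0.05. Without control replicate 2 the median was −0.39, with 1 keratin at an unadjusted p under 0.05. That number was 2 without 4 mg/L replicate 1 or without 4 mg/L replicate 2, and 3 without control replicate 3. It was 6 without control replicate 1, where the median was −0.63, and 7 without 4 mg/L replicate 3, where the median was −0.58. No share of all tested genes under 0.05 was computed for DESeq2, limma-voom or the fits with fewer libraries. Their counts therefore have no background to be weighed against.

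Among the type II keratins, krt4 (ENSDARG00000017624), a keratin of the superficial epidermis, had 23270, 32369 and 32236 CPM in control replicates 1, 2 and 3, 25198, 27447 and 27362 CPM at 0.1 mg/L, 20596, 16802 and 29928 CPM at 1 mg/L, and 20382, 15992 and 23262 CPM at 4 mg/L. Replicate 1 was the low library of the control and replicate 2 the low library at 1 and 4 mg/L, and the 4 mg/L and control groups met almost edge to edge without overlapping. krt4 averaged 19879 ± 3661 CPM at 4 mg/L and 29292 ± 5216 CPM in the control (SD, n = 3 each). Its log2 fold change was −0.56 (SE 0.277, 95% interval −1.16 to 0.041, adjusted p = 0.44), which did not pass the test.

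krt5 (ENSDARG00000058371), a type II keratin of the epidermis, had 7576, 11072 and 8881 CPM in the control, 9704, 9038 and 7664 CPM at 0.1 mg/L, 6830, 6280 and 9111 CPM at 1 mg/L, and 6706, 6241 and 8141 CPM at 4 mg/L. Each dose overlapped the control. The 4 mg/L libraries averaged 7029 ± 991 CPM and the control libraries 9176 ± 1767 CPM, a log2 fold change of −0.38 (SE 0.231, adjusted p = 0.51). The smallest adjusted p of the 10 keratins at 4 mg/L belonged to krt8 (ENSDARG00000058358), the type II keratin of simple epithelia. It had 1217, 1520 and 1443 CPM in the control, 1188, 1353 and 1177 CPM at 0.1 mg/L, 1166, 1081 and 1429 CPM at 1 mg/L, and 971.8, 959.2 and 1094 CPM at 4 mg/L. The 3 libraries at 4 mg/L lay below all others, except that replicate 3 at 4 mg/L stood just above replicate 2 at 1 mg/L. krt8 averaged 1008 ± 74.6 CPM at 4 mg/L and 1393 ± 157 CPM in the control, a log2 fold change of −0.47 (SE 0.164, 95% interval −0.82 to −0.11, adjusted p = 0.27).

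Of the type I keratins, krt18 (ENSDARG00000018404), the partner of krt8, had 467.7, 466.7 and 547.6 CPM in the control, 386.7, 420.4 and 477.5 CPM at 0.1 mg/L, 399, 354.9 and 507.9 CPM at 1 mg/L, and 353.1, 353.8 and 465.6 CPM at 4 mg/L. Replicate 3 was the highest library of each group, and the highest 4 mg/L library lay just under the lowest control library. The log2 fold change at 4 mg/L was −0.34 (SE 0.174, adjusted p = 0.46). krt15 (ENSDARG00000036840) had 707.2, 1184 and 980.1 CPM in the control, 769.6, 885.9 and 856 CPM at 0.1 mg/L, 704.1, 597.9 and 968.6 CPM at 1 mg/L, and 551.2, 664.9 and 696 CPM at 4 mg/L. Here too the 4 mg/L group ended just under the control group, whose replicate 1 was low. krt15 averaged 637.4 ± 76.2 CPM at 4 mg/L and 957 ± 239 CPM in the control, a log2 fold change of −0.59 (SE 0.219, adjusted p = 0.30).

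cyt1 (ENSDARG00000092947) and krt17 (ENSDARG00000094041), type I keratins of the superficial epidermis, differed most between 4 mg/L and the control. cyt1 had 7586, 12063 and 12173 CPM in the control, 7393, 9371 and 10077 CPM at 0.1 mg/L, 6589, 5134 and 11234 CPM at 1 mg/L, and 5346, 4330 and 7501 CPM at 4 mg/L. The 4 mg/L libraries all lay below the control libraries, again by a narrow margin between replicate 3 at 4 mg/L and replicate 1 of the control. cyt1 averaged 5726 ± 1620 CPM at 4 mg/L and 10607 ± 2618 CPM in the control, a fold change of 0.54 on the linear scale (log2 fold change −0.89, SE 0.325, 95% interval −1.59 to −0.19, adjusted p = 0.29). krt17 had 3175, 4083 and 6489 CPM in the control, 3725, 3237 and 4559 CPM at 0.1 mg/L, 2730, 1977 and 5176 CPM at 1 mg/L, and 2440, 1749 and 3231 CPM at 4 mg/L. Replicate 3 was the highest library of every group, and the 4 mg/L and control groups overlapped. krt17 also varied most over the 12 libraries, with a highest level 3.71 times the lowest, against 1.55 times for krt18. Its log2 fold change at 4 mg/L was −0.89 (SE 0.369, 95% interval −1.69 to −0.089, adjusted p = 0.35).

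krt91 (ENSDARG00000036830) had 5327, 8021 and 6328 CPM in the control, 5354, 6123 and 4716 CPM at 0.1 mg/L, 4153, 3768 and 6102 CPM at 1 mg/L, and 3746, 3779 and 5616 CPM at 4 mg/L. Only replicate 3 at 4 mg/L reached into the control range, and the log2 fold change was −0.58 (SE 0.257, adjusted p = 0.38). krt92 (ENSDARG00000036834) had 593.4, 728.4 and 891 CPM in the control, 541.3, 829.9 and 973.8 CPM at 0.1 mg/L, 618.1, 690.4 and 1047 CPM at 1 mg/L, and 434.7, 594.5 and 659.5 CPM at 4 mg/L. Replicate 1 was its lowest and replicate 3 its highest library in every group, the 4 mg/L and control groups overlapped, and the log2 fold change at 4 mg/L was −0.39 (SE 0.266, adjusted p = 0.57). krt94 (ENSDARG00000044975), the keratin with the fewest counts, had 57.49, 67.51 and 87.44 CPM in the control, 50.11, 77.12 and 90.9 CPM at 0.1 mg/L, 60.25, 83.27 and 88.17 CPM at 1 mg/L, and 55.4, 85.06 and 73.93 CPM at 4 mg/L. It was the only one of the 10 with a log2 fold change above 0 at 4 mg/L, of 0.014 (SE 0.24, 95% interval −0.51 to 0.53, adjusted p = 0.99), and upper-quartile scaling turned that value to −0.0071.

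**Figure D2:**
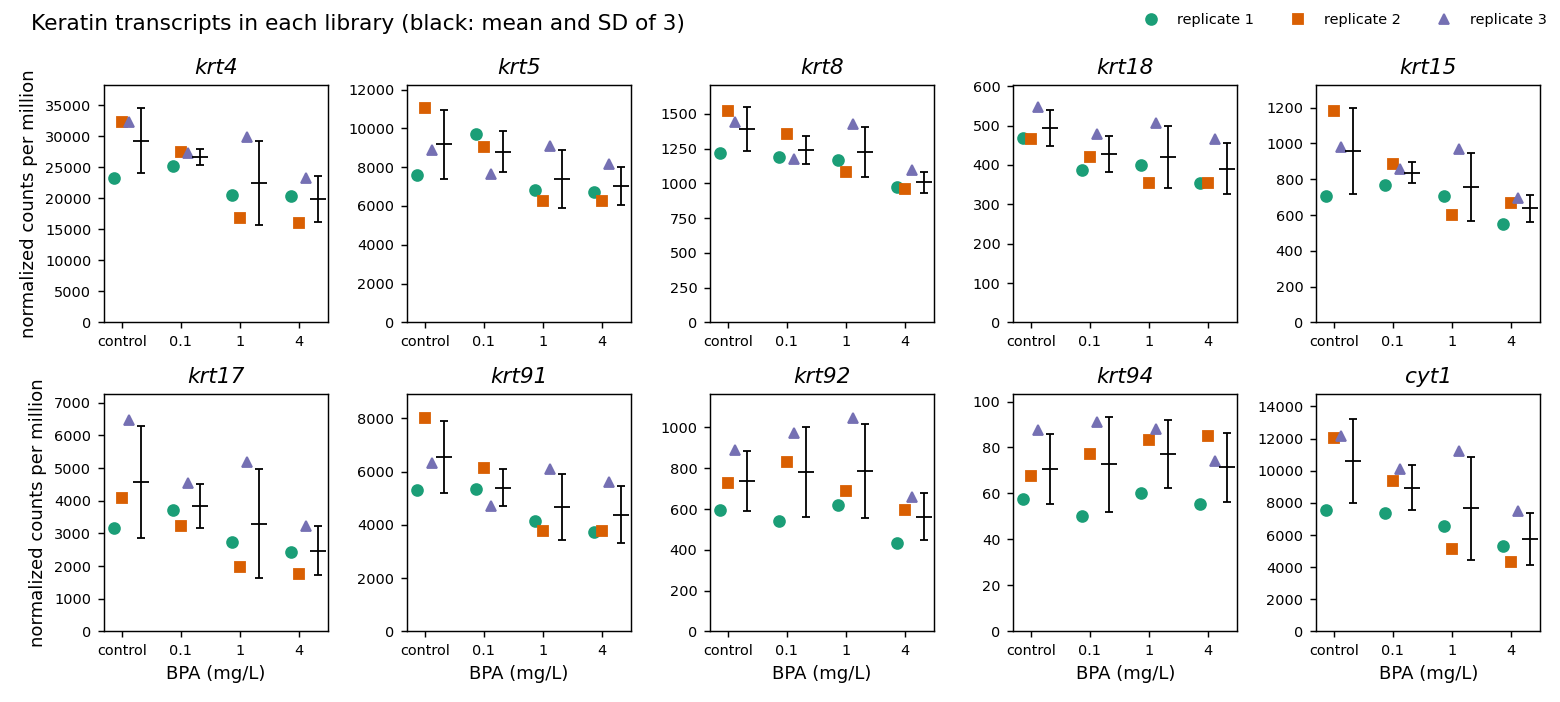
Normalized counts per M counts (CPM, vertical axis, linear from 0, a scale per gene) of the 10 keratins by BPA dose (horizontal axis, mg/L), with 1 point per library marked by replicate number and the mean and SD of 3 libraries in black. Group means were lower at each step of dose for 8 of the 10 genes, and krt94 kept group means of 70.81 to 77.23 CPM.

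The comparisons of 1 and 0.1 mg/L with the control share the control libraries with the comparison at 4 mg/L. At 1 mg/L, 0 of the 10 keratins passed edgeR's test (15 genes did, 0.067% of those tested), 0 were lower at an unadjusted p under 0.05 (3.18% of all tested genes), and 0 were lower than the control in every library (6.08%). DESeq2 passed 0, with 1 under 0.05, and limma-voom passed 0 with 0 under 0.05. 8 of the 10 log2 fold changes were below 0 (51.9% of all tested genes), with a median of −0.32 against −0.012 for all tested genes. The lowest was −0.49 for krt91 (SE 0.257, 95% interval −1.05 to 0.069, adjusted p = 0.63), and krt92 and krt94 stood above 0 at 0.090 and 0.13. The median was −0.51 in the libraries numbered 1 and 2 alone, −0.51 without 1 mg/L replicate 3 and −0.20 without 1 mg/L replicate 2. The number at an unadjusted p under 0.05 was 6 without 1 mg/L replicate 3, 3 in the libraries numbered 1 and 2 alone and 2 without control replicate 1. The share of 3.18% belongs to edgeR's fit of all 12 libraries. No such share was computed for the other fits, so these counts have no background to be weighed against. Replicate 3 was the highest of the 3 libraries at 1 mg/L for all 10 keratins, and replicate 2 the lowest for all but krt92 and krt94, whose lowest was replicate 1.

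At 0.1 mg/L, 0 of the 10 keratins and 0 of 22399 genes (0%) passed edgeR's test, and 0 keratins were lower at an unadjusted p under 0.05 (2.41% of all tested genes), also in DESeq2 and limma-voom. 8 of the 10 log2 fold changes were below 0 (51.6% of all tested genes), with a median of −0.18 against −0.0082 for all tested genes. They ran from −0.28 for krt91 (SE 0.257, 95% interval −0.84 to 0.28) to 0.084 for krt92 (SE 0.266, 95% interval −0.49 to 0.66). For every keratin the libraries at 0.1 mg/L overlapped the control libraries, so 0 were lower in every library (4.71% of all tested genes). The median was −0.083 in the libraries numbered 1 and 2 alone and −0.078 without control replicate 2.

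**Figure D3:**
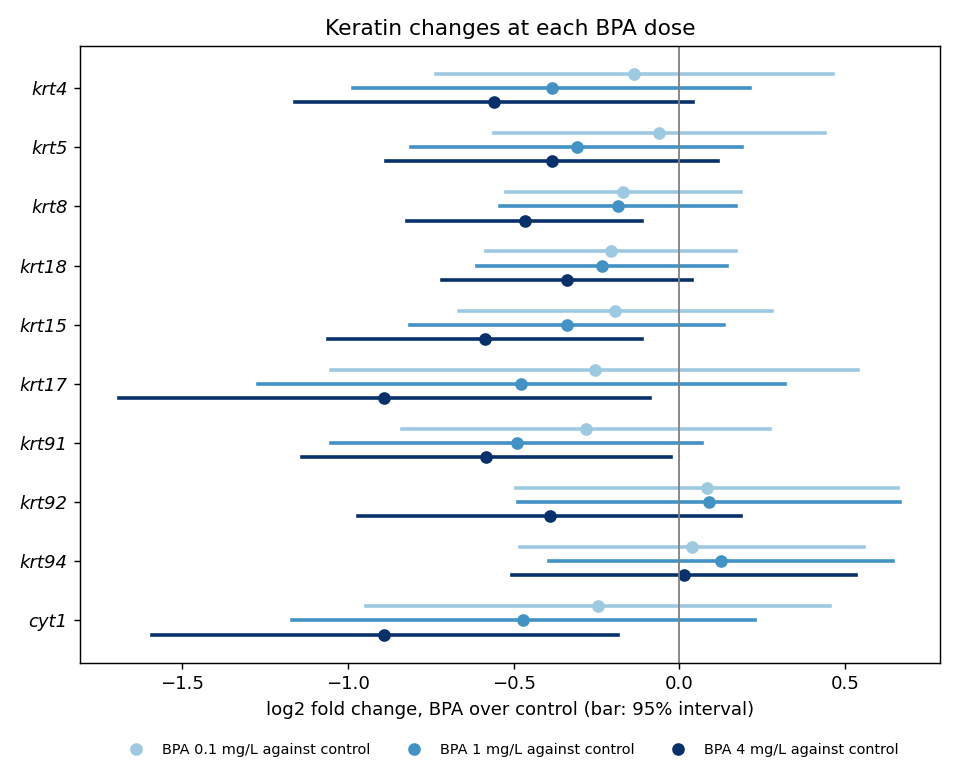
Log2 fold change of each keratin at 0.1, 1 and 4 mg/L over the control (horizontal axis), with its 95% interval from edgeR's fit as a bar. At 4 mg/L the values ran from −0.89 for cyt1 and krt17 to 0.014 for krt94, and the intervals of krt8, krt15, krt17, krt91 and cyt1 lay below 0 before adjustment for the number of genes tested.

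Over the whole dose series, 8 of the 10 keratins, krt92 and krt94 being the exceptions, had group means that were lower at each step of dose, starting from the control (9% of all tested genes). These 8 are not separate cases, since the genes were read in the same libraries. From 0.1 to 1 mg/L the means hardly differed for krt8 (1239 and 1226 CPM) and krt18 (428.2 and 420.6 CPM). A test of any difference among the 4 groups passed 0 of the 10 in edgeR, with a smallest adjusted p of 0.72 for krt8 and 0 at an unadjusted p under 0.05, where 14 genes passed in all (0.0625%). DESeq2 and limma-voom passed 0 as well. Between doses, 4 against 1 mg/L gave log2 fold changes below 0 for all 10 keratins (48.5% of all tested genes), with a median of −0.21, or −0.095 in the libraries numbered 1 and 2 alone. Without 1 mg/L replicate 3 the median was 0.027, with 5 of the 10 below 0, and without 4 mg/L replicate 1 or replicate 2 8 of the 10 were below 0. 0 keratins passed (2 genes did, 0.00893%), 0 were lower at an unadjusted p under 0.05 (3.38% of all tested genes), and 0 were lower in every library (5.63%). DESeq2 and limma-voom passed 0 there, with 1 and 0 at an unadjusted p under 0.05. With the replicate number as a block 0 keratins and 15 genes in all passed, and 2 keratins were at an unadjusted p under 0.05. For 4 against 0.1 mg/L all 10 were again below 0 (50% of all tested genes), with a median of −0.36, 0 passed (2 genes did, 0.00893%) and 0 were lower at an unadjusted p under 0.05 (3.68%). DESeq2 passed 0 with 2 under 0.05, and limma-voom 0 with 0. With the replicate number as a block 0 keratins and 32 genes in all passed, and 6 keratins were at an unadjusted p under 0.05. In the libraries numbered 1 and 2 alone the median was −0.485, with 9 of the 10 below 0 and 3 at an unadjusted p under 0.05. The shares of 3.38% and 3.68% belong to edgeR's fit of all 12 libraries without a block. No such share was computed for the other fits. krt4, krt8, krt15 and krt17 were lower in every library at 4 mg/L than in any at 0.1 mg/L (6.88% of all tested genes). The value furthest from 0 was that of cyt1, at −0.64 (SE 0.323, 95% interval −1.35 to 0.058, adjusted p = 0.75). For 1 against 0.1 mg/L 8 of the 10 values were below 0 (48.2% of all tested genes), with a median of −0.18, or −0.42 in the libraries numbered 1 and 2 alone. Without 1 mg/L replicate 2 the median was 0.013, with 5 of the 10 below 0. 0 passed in edgeR (2 genes did, 0.00893%), DESeq2 and limma-voom, and 0 were lower at an unadjusted p under 0.05 (0.893%) or in every library (2.35%).

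The 10 keratins shared their high and low libraries in part. As the mean over the 10 genes of log2 CPM minus each gene's own mean, the level was −0.071, 0.35 and 0.41 in control replicates 1, 2 and 3, −0.056, 0.16 and 0.19 at 0.1 mg/L, −0.20, −0.33 and 0.36 at 1 mg/L, and −0.41, −0.40 and −0.019 at 4 mg/L. The highest library of each group was the one numbered 3. The first principal component of all tested genes ordered the libraries much alike. It stood at 45.8, 27.6 and 27.1 in control replicates 3 and 2 and 1 mg/L replicate 3. In 4 mg/L replicate 1, 1 mg/L replicate 2 and 4 mg/L replicate 2 it stood at −40.4, −33 and −31. Its sign differed from that of the keratin level in 0.1 mg/L replicate 2 (−4.21) and 4 mg/L replicate 3 (13.1). Its part in the keratin values was not tested. krt18, krt17, krt92 and cyt1 were highest in the library numbered 3 in all 4 groups (10.23% of all tested genes). This held for krt94 in 3 groups, and for krt4, krt5, krt8, krt15 and krt91 in 2 groups each. Over the 10 genes and 4 groups it held in 29 of 40 cases. These cases are not separate, since the 10 genes were read in the same libraries, and no share over all tested genes was computed for this count. Within replicate numbers, 9 of the 10 keratins, krt94 being the exception, were lower at 4 mg/L than in the control for each of the numbers 1, 2 and 3 (21.2% of all tested genes). For krt4 the log2 ratio was −0.19 in replicate 1 and −1.02 in replicate 2. Over all tested genes, replicate 2 at 4 mg/L and in the control did not deviate from their group means together (correlation −0.0946). The ratios by number are therefore not those of established pairs. The part of the libraries numbered 3 in these values was not tested beyond the results without them.

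**Figure D4:**
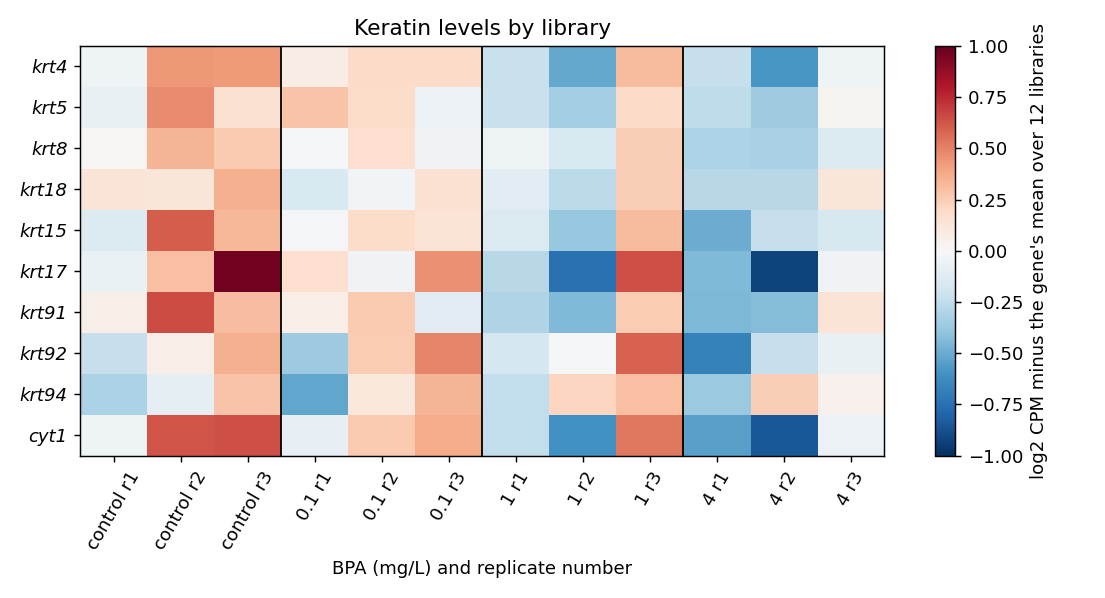
Log2 CPM of each keratin minus its mean over the 12 libraries (colour, red higher and blue lower, scale −1 to 1), with genes in rows and libraries in columns ordered by BPA dose in mg/L and replicate number. Control replicates 2 and 3 and replicate 3 at 1 mg/L are red for most genes, and replicate 2 at 1 mg/L and replicates 1 and 2 at 4 mg/L are blue for most genes.

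The likeness of single keratins to their common profile was measured as the root mean square difference of centred log2 CPM over the 12 libraries. krt4 lay nearest, at 0.103, followed by krt15 at 0.11 and krt8 at 0.121, while krt17 at 0.291 and krt94 at 0.319 lay furthest, against a median of 0.341 over 10317 genes with a mean of at least 10 CPM. Since the 10 genes make up that mean, their own values are lowered by construction and are not comparable with the median of other genes. The genes outside the 10 that were most like krt4 were rnf170 (0.0689), GABARAPL1 (0.0984), ISCU (0.102), si:dkey-16l2.20 (0.102) and si:ch211-42i9.5 (0.106), against a median of 0.373. Those most like the mean of the 10 were eif6 (0.061), myl10 (0.0716), hmox2a (0.0721), cxcr3.3 (0.0818) and rbm10 (0.088). All of these lay nearer to that mean than krt4, the nearest keratin, so the profile was not particular to keratins. All 12 libraries entered these values, which are descriptions with no test.

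Several of the 10 genes lie next to each other. In the RefSeq annotation of GRCz12tu, a later assembly than the GRCz10 build of the deposited counts, krt5, krt8 and krt18 (there krt18a.1) are direct neighbours, and so are cyt1, krt17 and krt91, with cyt1l between krt92 and cyt1. krt94 and krt15 are neighbours but for krt98, and krt4 lies apart from the other 9. Neighbouring keratin genes can be close copies, how reads matching several genes were assigned is not given in the sources used here, and counts of such copies are uncertain.

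The 11 other keratins were tested gene by gene and are summarized as a list, and 0 of them passed at 4 mg/L. 8 of the 11 had log2 fold changes below 0 (50.4% of all tested genes), with a median of −0.29, and 4 of the 11 were lower than the control in every library (8.91% of all tested genes). krt97 averaged 635.6 ± 159 CPM at 4 mg/L and 1205 ± 303 CPM in the control (log2 fold change −0.92, SE 0.304, adjusted p = 0.24). cyt1l, the neighbour of cyt1, averaged 2278 ± 125 CPM at 4 mg/L and 4008 ± 1236 CPM in the control (−0.82, SE 0.292, adjusted p = 0.28), and krt1-19d 197.3 ± 28.7 CPM at 4 mg/L and 273.4 ± 19.3 CPM in the control (−0.47, SE 0.172, adjusted p = 0.29). krtt1c19e, a keratin of basal epidermal cells, averaged 3481 ± 715 CPM at 4 mg/L and 4018 ± 1030 CPM in the control, and the groups overlapped (−0.21, SE 0.25, adjusted p = 0.75). KRT84 averaged 55.29 ± 16.8 CPM at 4 mg/L and 65.99 ± 13.9 CPM in the control (−0.26, SE 0.263, adjusted p = 0.70). The list's median at 4 mg/L was −0.50 in the libraries numbered 1 and 2 alone, −0.47 without 4 mg/L replicate 3, −0.16 with library totals in place of TMM and −0.13 without 4 mg/L replicate 2.

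Against the same control libraries, other genes of the periderm mostly had the same sign as the keratins at 1 and 4 mg/L. Of 24 periderm markers, 0 passed at 4 mg/L and 23 had log2 fold changes below 0 (50.4% of all tested genes), with a median of −0.23. At 1 mg/L all 24 were below 0 (51.9% of all tested genes) with a median of −0.28, and at 0.1 mg/L 12 were above and 12 below. For 4 against 1 mg/L, where all 10 keratins were below 0, 14 of the markers were above and 10 below 0, with a median of 0.026. For 4 against 0.1 mg/L 23 were below 0 (50% of all tested genes), with a median of −0.19. Summed over the 24 genes, the level ran from 4054 to 4675 CPM in the control, 3668 to 4716 CPM at 0.1 mg/L, 2426 to 4409 CPM at 1 mg/L and 2493 to 4258 CPM at 4 mg/L. The markers include anxa1c, an annexin, with 66.34 ± 39.6 CPM at 4 mg/L and 168 ± 57 CPM in the control (log2 fold change −1.34, SE 0.401, adjusted p = 0.20). Another is icn2, an ictacalcin, with 205.6 ± 59 CPM at 4 mg/L and 375.7 ± 97.4 CPM in the control (−0.87, SE 0.294, adjusted p = 0.25). Without 4 mg/L replicate 2, 17 of the 24 were below 0 with a median of −0.059, and without 1 mg/L replicate 2, 15 were below 0 at 1 mg/L with a median of −0.065. In the libraries numbered 1 and 2 alone all 24 were below 0 at 4 mg/L, with a median of −0.41. At 4 mg/L 1 of the 24 passed in DESeq2, where 483 genes passed in all. In edgeR 1 passed without 4 mg/L replicate 3, where the median was −0.39. Fits with a library left out passed 14 to 106 genes in all. With library totals the median was −0.10.

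Other lists of epidermal genes had medians nearer to 0 at 4 mg/L, where 50.4% of all tested genes were below 0. They share members with the periderm markers: ppl and evpla (cell adhesion, and transglutaminases and envelope proteins), scel (transglutaminases and envelope proteins) and elf3 (transcription factors). There 0 passed among 18 cell adhesion genes of the epidermis (10 below 0, median −0.023), 21 genes of hemidesmosomes and basement membrane (13 below 0, median −0.04), 21 epidermal transcription factors (16 below 0, median −0.071) and 12 transglutaminases and envelope proteins (8 below 0, median −0.068). cd151, a tetraspanin of hemidesmosomes, had 8.01 ± 0.567 CPM at 4 mg/L and 11.9 ± 1.17 CPM in the control (−0.57, SE 0.13, adjusted p = 0.10), and klf2b, a zinc finger transcription factor, had 38.3, 28.6 and 49 CPM at 4 mg/L and 61.2, 72.5 and 53.4 CPM in the control (−0.69, SE 0.208, adjusted p = 0.21). pkp1b, a plakophilin of desmosomes, had 12.6 ± 2.73 CPM at 4 mg/L and 20 ± 7.25 CPM in the control (−0.68, SE 0.312, adjusted p = 0.40), and tgm1l4, a transglutaminase, 5.31 ± 2.11 CPM at 4 mg/L and 9.03 ± 1.59 CPM in the control (−0.78, SE 0.272, adjusted p = 0.27). tgm1l2, another transglutaminase, was higher without overlap but at levels below 1 CPM, with 0.321 ± 0.166 CPM at 4 mg/L and 0.131 ± 0.0377 CPM in the control (1.25, SE 0.49, adjusted p = 0.32). Other named members were dsg2l, a desmoglein (0.58, SE 0.307, adjusted p = 0.46), grip1 (0.13, SE 0.12, adjusted p = 0.67) and tfap2c (−0.36, SE 0.201, adjusted p = 0.48), as log2 fold changes at 4 mg/L that did not pass. Without 4 mg/L replicate 2 the medians of the transcription factors and of the hemidesmosome genes were 0.079 and 0.083, on the other side of 0, as they were without control replicate 2 (0.029 and 0.016) and with library totals in place of TMM (0.048 and 0.080). In the libraries numbered 1 and 2 alone they were −0.33 and −0.215, and DESeq2 passed 1 hemidesmosome gene (483 genes in all). At 1 mg/L the medians were −0.24 for the transcription factors and −0.185 for the hemidesmosome genes, with 19 of 21 below 0 in each (51.9% of all tested genes) and 0 passed, where the 11 other keratins had a median of −0.17. Without 1 mg/L replicate 2 these medians were −0.069, −0.059 and −0.063.

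Markers of other cell types of the skin and of inner organs were tested beside the keratins. At 4 mg/L, 22 ionocyte markers had a median of −0.0075 (11 above and 11 below 0) and 6 mucous cell markers a median of −0.0022 (3 and 3), with 0 passed in each. slc9a3.2, a sodium-proton exchanger of ionocytes, was at 0.55 (adjusted p = 0.42), atp1a1a.5, a sodium pump subunit, at −0.39 (adjusted p = 0.30), and the mucous cell genes agr2 and muc5.1 at 0.38 (adjusted p = 0.59) and −0.39 (adjusted p = 0.55). 3 of 19 gut epithelium markers rose at 4 mg/L (0.281% of all tested genes passed in either direction), where 13 were above 0 and the median was 0.18: amn, which serves vitamin B12 uptake, with 6.87 ± 0.902 CPM at 4 mg/L and 3.31 ± 0.119 CPM in the control (log2 fold change 1.05, adjusted p = 0.015), apoa1a (1.72, adjusted p = 0.020) and slc10a2, a bile acid transporter (1.16, adjusted p = 0.022). 3 of 15 hepatocyte markers rose at 4 mg/L, with a median of 0.55: vtnb (1.16, adjusted p = 0.0034), f2, which encodes prothrombin (1.22, adjusted p = 0.011), and apoba (1.91, adjusted p = 0.041). At 1 mg/L f2 and vtnb passed too (adjusted p = 0.043 and 0.016), where 0.067% of all tested genes passed. The marker lists were chosen with earlier results of these data known, so the shares of all tested genes are no unbiased background for them. The gut median was higher at 1 mg/L than at 4 mg/L, at 0.77 with all 19 above 0 and 0 passed. It was 0.41 at 0.1 mg/L, with 18 above 0, and −0.48 for 4 against 1 mg/L. The hepatocyte median was 0.845 at 1 mg/L and 0.56 at 0.1 mg/L. At 1 mg/L 0 hepatocyte markers passed without any single one of the 3 control libraries, without 1 mg/L replicate 1 or replicate 2, in the libraries numbered 1 and 2 alone, in a fit of the 2 groups, with library totals or at a threshold of 0.01. 12 notochord markers had a median of 0.56, with 0 passed, among them the cartilage and notochord genes col2a1a at 0.74 (adjusted p = 0.30) and matn1 at 0.64 (adjusted p = 0.29). The notochord median was 0.12 without 4 mg/L replicate 2, with 5 of the 12 below 0, 0.365 without control replicate 1 and 0.995 in the libraries numbered 1 and 2 alone. None of the gut or hepatocyte markers was without counts, and their summed levels were 4152 to 6444 CPM at 4 mg/L and 3063 to 4274 CPM in the control for gut, and 4918 to 5194 CPM at 4 mg/L and 3599 to 4679 CPM in the control for hepatocytes. The part of the make-up of the larval RNA in the keratin values was not tested. At 4 mg/L 0 gut markers passed without 4 mg/L replicate 2, without control replicate 1, without control replicate 3, in the libraries numbered 1 and 2 alone or at a threshold of 0.01, and 1 passed without control replicate 2. Without 4 mg/L replicate 2 the gut median was 0.047. 1 hepatocyte marker passed at 4 mg/L without control replicate 2, where the median was 0.27, and 1 without 4 mg/L replicate 2, in the libraries numbered 1 and 2 alone or at a threshold of 0.01.

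Among 19 intermediate filament genes that are not keratins, 0 passed at 4 mg/L, 12 were above 0 and the median was 0.15. It was 0.076 without 4 mg/L replicate 1 and 0.34 without 4 mg/L replicate 3, and DESeq2 passed 1 (483 genes in all). desma, the muscle desmin, had 137.6 ± 29.8 CPM at 4 mg/L and 210.2 ± 23.8 CPM in the control, without overlap (−0.61, SE 0.172, adjusted p = 0.18), and synm, synemin, had 25.3 ± 2.35 CPM at 4 mg/L and 34.4 ± 3.61 CPM in the control (−0.44, SE 0.142, adjusted p = 0.23). Of 11 tested wound and inflammation genes 0 passed, and 9 were below 0 (50.4% of all tested genes) with a median of −0.21. ptgs2b, a cyclooxygenase, was at −0.69 (adjusted p = 0.23) and aldh1a2, a retinoic acid synthesis enzyme, at 0.89 (adjusted p = 0.22).

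**Figure D5:**
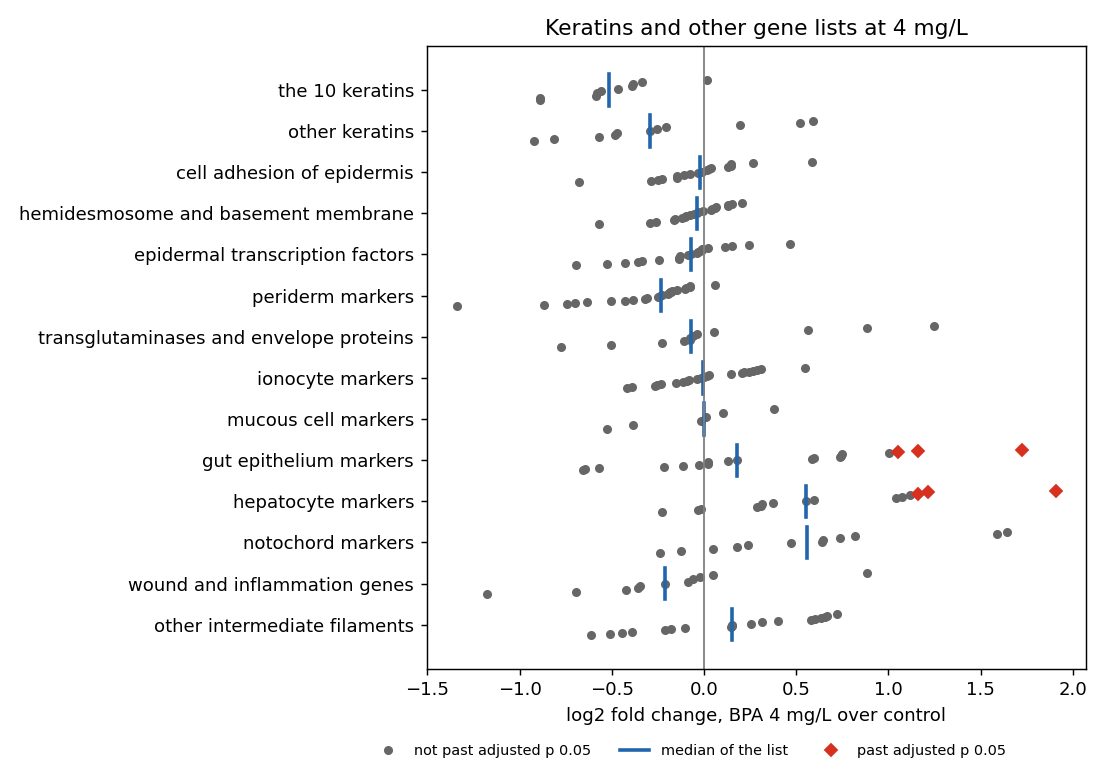
Log2 fold change at 4 mg/L over the control (horizontal axis) of every tested gene of 14 lists (rows), with each list's median as a blue bar and genes past an adjusted p of 0.05 as red diamonds. Genes that stand in several lists are drawn in each. The 10 keratins have the lowest median, −0.51, followed by the 11 other keratins at −0.29 and the 24 periderm markers at −0.23, and the diamonds are 3 gut and 3 hepatocyte markers.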

How the data were processed

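Whole-larva poly-A RNA was sequenced from stranded libraries (15 PCR cycles, pairs of 76 base reads), per the labels' protocols. Per the submitters' processing notes STAR 2.5.1b and RSEM 1.2.28 were among the tools named, beside CASAVA and DESeq2 1.10.1, and the build was GRCz10; sources used here give neither order nor settings. The deposited values are counts, with 0 values that were not whole, and are not normalized. Every row had a gene identifier, and 4137 of 31540 genes had 0 counts throughout.

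Groups and replicate numbers came from the sample titles. Genes were kept by filterByExpr (minimum count 10, minimum total 15), leaving 22399, scaled by TMM, and modelled jointly in all 12 libraries by group in edgeR 4.0.16 (R 4.3.3). Quasi-likelihood tests were two-sided, adjusted by Benjamini-Hochberg across the tested genes, with a threshold of 0.05, and were first tested on simulated data. The simulated counts were independent between libraries and lacked the split along the first principal component. They therefore do not show how the tests perform on differences of the size seen for keratins in these libraries. CPM are TMM-scaled and log2 levels used a prior count of 2. Alternatives were DESeq2 1.42.0, limma-voom (limma 3.58.1), RLE and upper-quartile scaling, TMM without keratin genes, the replicate number as a block, no low-count filter, a filter of at least 1 CPM in 3 libraries, the libraries numbered 1 and 2 alone, a fit of the 2 groups compared alone, each library left out, and a threshold of 0.01. Library totals in place of TMM, and all alternatives for the gene lists, were chosen after seeing the data. Reads carried no molecular identifiers, so intervals of shares hold counting error alone.

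The keratins and the gene lists were chosen with earlier results of these data known. Shares of all tested genes set beside their counts are therefore descriptions and no independent support. The text names all 10 keratins, the 5 most abundant other keratins, and up to 4 passing members of each other list or else its 2 with the smallest adjusted p at 4 mg/L. The 5 genes most like krt4 or like the keratins' mean were taken by root mean square difference.

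Same-numbered libraries deviated together between doses (correlations of deviations from group means between 0.333 and 0.479 for 4 with 1 mg/L, 0.242 and 0.355 for 4 with 0.1 mg/L, and 0.233 and 0.513 for 1 with 0.1 mg/L). This likeness comes from the data, and the labels name no pairs. All libraries numbered 3 lay on the positive side of the first principal component. Whether the likeness reflects pairs or that common side was not tested. With the control, replicate 1 gave 0.385, 0.251 and 0.21 for 4, 1 and 0.1 mg/L, and replicate 3 gave 0.292, 0.398 and 0.455. Replicate 2 gave −0.0946, −0.238 and 0.0023, so the likeness with the control does not hold for all numbers.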

Additional observations from a re-analysis of the deposited data

How the results depend on the processing

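Under 24 alternatives, 1440 values of single keratins were recomputed: 1385 kept direction and side of the threshold, 3 passed it newly, and 52 turned direction, none of them a value that had passed. The threshold of 0.01 reused the main values, none of which had passed, so its values could only stay the same. Leaving out libraries of groups not compared moved the keratin median at 4 mg/L against control only from −0.513 to between −0.5 and −0.512. The number of unmoved values thus overstates stability. At 4 mg/L against control DESeq2 passed 1 keratin (krt8) and 483 genes in all. The replicate block passed 2 keratins (krt17, log2 fold change −0.88, adjusted p = 0.028, and cyt1, −0.91, adjusted p = 0.040). With the block 1094 genes passed in all, so its calls stand beside a far larger background, and 299 passed at 1 mg/L. Between doses the block passed 15 genes for 4 against 1 mg/L, 32 for 4 against 0.1 mg/L and 2 for 1 against 0.1 mg/L, and 0 keratins. 8 keratins at 4 mg/L and 4 at 1 mg/L against control were at an unadjusted p under 0.05 with the block. The share of all tested genes under 0.05 was not computed for the block, so these counts have no background to be weighed against. In the gene lists at 4 mg/L the block passed 2 other keratins, 3 periderm markers, 1 hemidesmosome gene, 1 wound gene and 2 other intermediate filaments, against 0 of each without it, and 6 gut and 6 hepatocyte markers, against 3 of each. At 1 mg/L it passed 6 gut markers (0 without it), 5 hepatocyte markers (2 without it) and 1 wound gene (0 without it), and at 0.1 mg/L 1 gut marker (0 without it) and 2 genes in all; it changed no other call of a keratin or list. All genes passed in the comparison of 4 mg/L with control numbered 63, 14 to 106 with a library left out and 16 to 1094 under the other alternatives; the ranges were 0 to 11 and 0 to 299 around 15 at 1 mg/L, and 0 and 0 to 22 around 0 at 0.1 mg/L. For any difference among the 4 groups they were 1 to 24 and 2 to 376 around 14, and between doses 0 to 61 around 2. Library totals in place of TMM moved the median of all genes at 4 mg/L to 0.131 and that of the keratins to −0.369.

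The cause of the turns in direction was not tested. krt94 was at −0.00708 for 4 mg/L against control with upper-quartile scaling, and at 0.149 and 0.111 for 4 against 0.1 mg/L in the libraries numbered 1 and 2 and with library totals. krt92 for 1 against 0.1 mg/L was at −0.0138 with upper-quartile scaling, −0.00543 with TMM without keratins, −0.062 in the libraries numbered 1 and 2 and −0.00677 in a fit of the 2 groups. krt5 at 0.1 mg/L against control was at 0.0184 in the libraries numbered 1 and 2. With library totals krt5 and krt91 were at 0.0197 and 0.00138 for 4 against 1 mg/L, and krt8 and krt18 at 0.0146 and 0.0072 for 1 against 0.1 mg/L. Leaving out 1 library at a time gave ranges that crossed 0 as follows. For 4 mg/L against control this was krt94 (−0.13 to 0.197), and for 1 mg/L against control krt92 (−0.163 to 0.236) and krt94 (−0.004 to 0.294). For 0.1 mg/L against control krt5 ran from −0.18 to 0.0979, krt17 from −0.46 to 0.0788, krt92 from −0.0992 to 0.29 and krt94 from −0.147 to 0.248. For 4 against 1 mg/L krt4 ran from −0.345 to 0.0932, krt5 from −0.181 to 0.105, krt18 from −0.231 to 0.0567, krt17 from −0.676 to 0.0767, krt91 from −0.292 to 0.149 and krt94 from −0.262 to 0.0427, and for 4 against 0.1 mg/L krt94 ran from −0.233 to 0.175. For 1 against 0.1 mg/L krt8 ran from −0.138 to 0.0659, krt18 from −0.181 to 0.0823, krt17 from −0.704 to 0.0413, krt92 from −0.253 to 0.185 and krt94 from −0.122 to 0.271. At 4 mg/L against control the SE of a keratin's log2 fold change ran from 0.164 to 0.369 with 3 pools per group; the effect of depth on it was not tested.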
